A study of Mus musculus with 2 samples.

Results

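The killer lectin-like receptors were described as the 26 genes, of 31053 in the deposited gene list, whose symbols begin with Klra, Klrb, Klrc, Klrd, Klre, Klrg, Klri or Klrk. They were followed across immune cells of the stomach in TxA23 mice, which carry a T cell receptor transgene against a parietal cell antigen and develop autoimmune gastritis. Mice aged 3 months were given a pump under the skin, and 4 weeks later their cells were taken. The IL-27 group received 800 ng of recombinant IL-27, loaded at 4 µg/mL in 200 µL (the p28 and EBI3 chains covalently linked), and held 3 females. The PBS group received the vehicle alone and held 1 male and 1 female. All mice of both groups carried the TxA23 genotype, and a group without the transgene was not analysed here. Cells flushed from the gastric mucosa were sorted as CD45+ and negative for propidium iodide, a dye that enters dead cells, and profiled by 10x Genomics single-cell RNA sequencing from the 5′ end. The cells of a group were given as 1 library, so no test between treatments was made.

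These receptors are type II membrane proteins with a lectin-like domain, and natural killer (NK) cells use them to read MHC class I molecules and other surface ligands on neighbouring cells. Some members are inhibitory and carry a tyrosine motif that recruits phosphatases, while others are activating and signal through the adaptors encoded by Tyrobp and Hcst. Klrd1 (CD94) pairs with the NKG2 proteins encoded by Klrc1 and Klrc2 to bind Qa-1, and Klrk1 (NKG2D) binds stress-induced ligands. The Klra genes encode the Ly49 receptors, which single NK cells are known to carry in differing combinations.

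Depth is given in UMIs (unique molecular identifiers, 1 per captured RNA molecule), of which there were 80121995 over 20897 barcodes with IL-27 and 43501501 over 12276 barcodes with PBS. Barcode suffixes separated 3 wells of the IL-27 library and 2 of the PBS library, with 5451 to 7234 kept cells each. The labels do not say that a well is a mouse, so wells are given as separate values and not as replicates. UMIs of Y-linked genes stood at 3074 in PBS well 2 and at 0 in the other 4 wells. In PBS well 2, 2162 cells were called male and 183 female from Xist and Y-linked UMIs. In PBS well 1, 0 were called male and 4410 female, so the 2 PBS wells did not hold 1 common mix of both mice. Treatment, sex and well therefore cannot be told apart in any difference that rests on PBS well 2. No doublets could be removed from that well, where the caller marked 0.0183% of cells against 1.58% to 4.17% in the others. The libraries shared 355 barcode sequences, and each pair of wells about 1% (0.805% to 1.08% of the smaller well).

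Subsets were gated on marker UMIs with no Klr gene in any gate. NK gated cells had Nkg7 and Tyrobp UMIs and none of Cd3d, Cd3e, Cd3g, Lyz2, Csf1r, Cd68 or C1qa. They numbered 432, of which 74, 62 and 42 came from IL-27 wells 1 to 3 and 81 and 173 from PBS wells 1 and 2. Of 8 NK markers outside the gate, such as Ncr1, Eomes, Prf1 and Gzma, 7 were highest in these cells. All 6 outside markers of regulatory T cells were highest in the Treg gate, 5 of 7 ILC2 markers in the ILC2 gate and 5 of 6 plasmacytoid dendritic cell (pDC) markers in the pDC gate. The CD8 gates were marked by genes that all T cells share, and 0 of 5 were highest there. Of 7 gamma-delta markers, such as Tcrg-C1 and Trgv2, 0 were highest in the 67 gamma-delta gated cells and 6 were among the highest 3 subsets, so that gate is described by its rule (Trdc without Trbc1 or Trbc2). Tcrg-C2, Sox13, Cd163l1, Trdv4 and Trgv2 were highest in the innate-like T gate. Of that gate's own 5 markers 0 were highest there, so it too is described by its rule (a Zbtb16 UMI and none of Foxp3).

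All 26 members lie on chromosome 6 of GRCm38 (mm10), and 24 of them lie within the NK gene complex, between 128609227 and 131247362, a span of 2638 kb. Klrg1 (122270596 to 122282882, minus strand) and Klrg2 (38625693 to 38637242, minus strand) lie outside it. Across the complex the genes are ordered by subfamily. The Klrb1 genes come first, followed by Klre1, Klrd1 (129591782 to 129598775, plus strand), Klrk1 (129610323 to 129623864, minus strand), Klrc3, Klrc2, Klrc1, Klri1, Klri2 and the Klra genes. All 26 are annotated as protein coding.

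The whole family stood at 4020 CPM (UMIs per 1000000 UMIs of all genes) in NK gated cells (95% Poisson interval 3914 to 4128), above that of every other gate and of the ungated cells. CD8 gated cells with a Ccl5 UMI followed at 779 (757 to 802) with the wells summed, a level carried by PBS well 2, at 2553 CPM against 289 to 542 in the other wells. In IL-27 well 1 these CD8 cells, at 289, lay below the pDC gated cells, at 403 from 71 UMIs. The ILC2 gated cells, at 341 from 14 UMIs, and the neutrophil gated cells, at 324 from 8 UMIs, were also above them, an order that so few UMIs leave uncertain. In IL-27 well 2 the CD8 cells, at 542, lay below the gamma-delta gated cells, at 772 from 25 UMIs in 9 cells. B gated cells, which are not known to carry these receptors and serve as a background level, stood at 11.4 (10.6 to 12.3). By well they were at 31.3 CPM in PBS well 2 and at 4.33 to 8.54 in the others. Whether free RNA or doublets gave these UMIs was not tested. At least 1 UMI of a member was found in 429 of 432 NK gated cells, or 99.3% (exact binomial 95% interval 98 to 99.9%). It was found in 1.74% of 18713 B gated cells, at similar median depths of 2789 and 2801 UMIs. The B share was 3.69% in PBS well 2 and 1.08% to 1.49% in the other wells. After thinning to 1000 UMIs per cell, which left out 31 NK gated cells, the shares were 98% and 0.66%. All intervals cover counting error only. Because reads start at the 5′ end, CPM values do not scale with transcript length and levels are compared between genes on that scale.

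**Figure D1:**
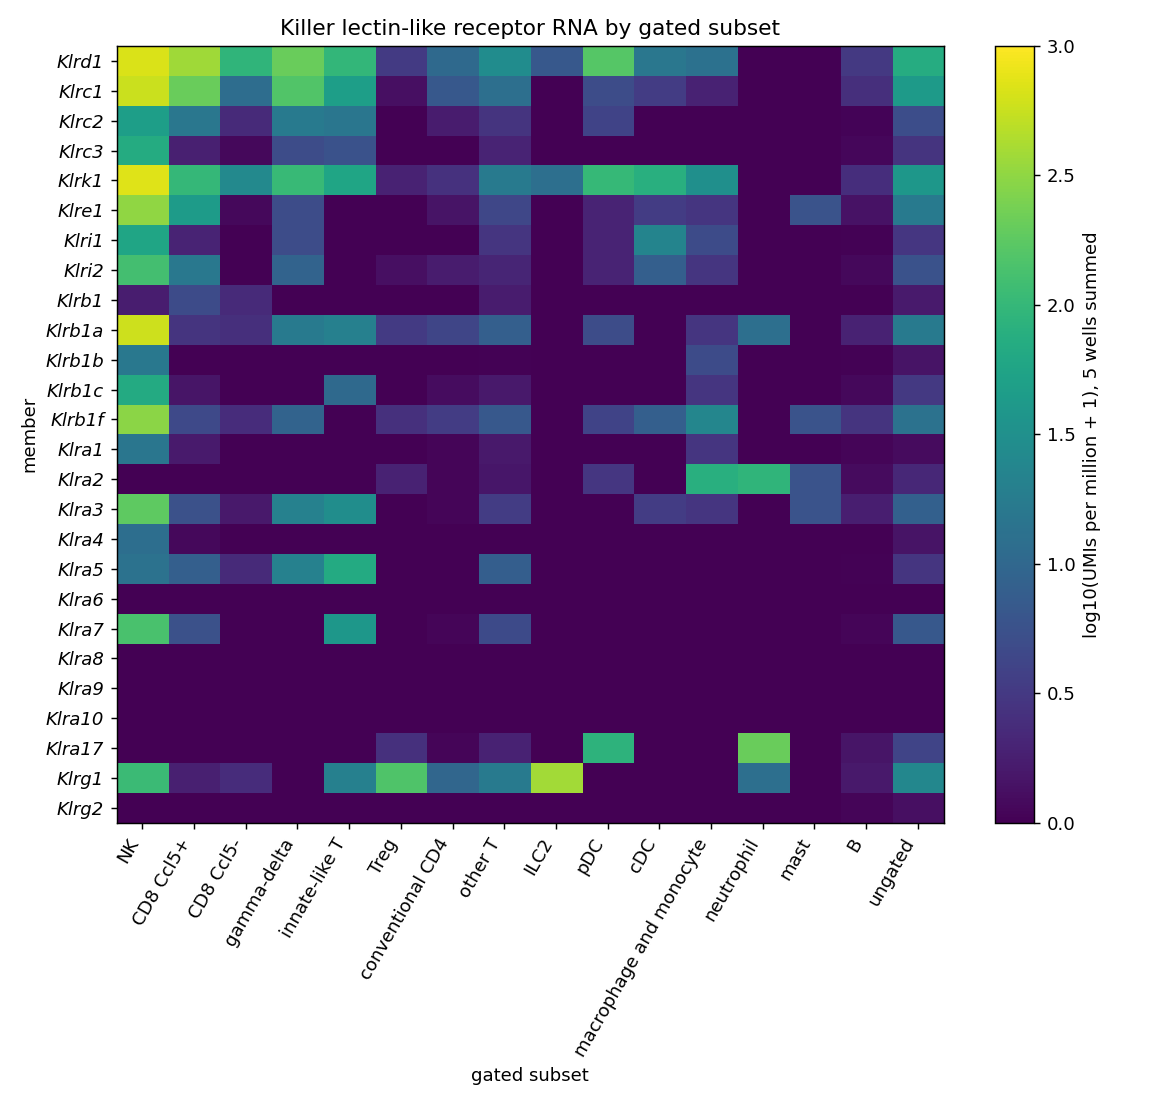
Level of each of the 26 members (rows) in each gated subset (columns), as log10 of CPM plus 1 with the 5 wells summed. NK gated cells are bright for most rows, Klrg1 is brightest in ILC2 and Treg gated cells, Klra17 in neutrophil and pDC gated cells, and 4 Klra rows are 0 throughout.

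Of the family's UMIs over all cells, 30.2% lay in NK gated cells, 26.6% in CD8 Ccl5+ gated cells, 13.4% in ungated cells and 11.2% in the remaining T cells. Single members divided differently. NK gated cells held 65.8% of Klrb1a UMIs and 54% of Klra3 UMIs, but 26.8% of Klrc1, 16.6% of Klrd1 and 10.8% of Klrg1 UMIs. The NKG2 group (Klrd1, Klrk1 and the 3 Klrc genes) made up 51.7% of the family's UMIs in NK gated cells, 88.9% in CD8 Ccl5+ gated cells and 73% in pDC gated cells. The Klrb1 genes gave 24.3%, Klre1 with the Klri genes 12.4%, the Klra genes 8.84% and the Klrg genes 2.73% of the family in NK gated cells. In Treg gated cells the Klrg genes alone gave 93.7%.

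In NK gated cells the activating receptor Klrk1 stood at 706 CPM (661 to 752) and Klrd1 at 676 (633 to 721), intervals that overlap. Klrb1a, an activating NKR-P1 receptor, followed at 596 (555 to 639) and Klrc1, the inhibitory NKG2A chain, at 580 (540 to 622), again overlapping. A step down separated these 4 from Klre1 at 316 (287 to 348), which pairs with the Klri proteins, and Klrb1f at 298 (270 to 329). Klra3 (Ly49C) stood at 181, Klra7 (Ly49G) at 137, Klri2 at 127 and Klrg1 at 110 CPM. Klrc3, Klrb1c (the NK1.1 antigen), Klri1 and Klrc2 lay between 47.4 and 68.9 CPM, and Klrb1b, Klra1, Klra5 and Klra4 between 11.1 and 14.8. Klrb1 had 1 UMI, and Klra2, Klra17, Klrg2, Klra6, Klra8, Klra9 and Klra10 had 0, where 3 UMIs would give 2.22 CPM.

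Klra6, Klra8, Klra9 and Klra10 had 0 UMIs in all cells of both libraries, and Klrg2 had 9 UMIs, 6 of them in B gated cells. The mouse strain is not given in the sources used here. The number and sequence of Klra genes are known to vary between strains while reads were counted on the reference genome, so an absent, a silent and an uncounted gene cannot be told apart. Some members also share sequence with a neighbour. Of the 90-base windows in the first 500 bases, 96.8% of those of Klrb1b also occur in the read-through gene Gm44511, 28.4% of those of Klrc2 in Klrc3 or Klrc1 and 20.6% of those of Klrb1c in Gm44511 or Klrb1a. The levels of Klrb1b, Klrb1c, Klrc2 and Klrc3 are therefore uncertain. Gm44511 itself had 3.7 CPM in NK gated cells.

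The sequences before the start sites are shown for the 4 NKG2 genes that sit side by side, for Klrb1a, which was found mostly in NK gated cells, and for Klra17, which was not found there. Each is the 250 bases before a start in RefSeq (GRCm38.p6), 5′ to 3′ on the gene's strand. Capitals mark TGTGGT or its reverse complement ACCACA, the core bound by RUNX factors.
Klrk1, chr6:129623865-129624114, minus strand: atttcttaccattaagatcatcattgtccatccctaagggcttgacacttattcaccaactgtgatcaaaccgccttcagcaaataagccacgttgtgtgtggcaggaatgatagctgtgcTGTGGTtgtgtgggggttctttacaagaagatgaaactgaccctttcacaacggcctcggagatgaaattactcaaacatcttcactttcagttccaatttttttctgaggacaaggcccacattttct
Klrc1, chr6:129678974-129679223, minus strand: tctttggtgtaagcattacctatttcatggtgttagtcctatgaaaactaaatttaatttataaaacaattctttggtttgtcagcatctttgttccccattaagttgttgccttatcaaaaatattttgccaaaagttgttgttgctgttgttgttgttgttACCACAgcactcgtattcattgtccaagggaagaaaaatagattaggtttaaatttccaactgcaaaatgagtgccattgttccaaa
Klrc2, chr6:129660557-129660806, minus strand: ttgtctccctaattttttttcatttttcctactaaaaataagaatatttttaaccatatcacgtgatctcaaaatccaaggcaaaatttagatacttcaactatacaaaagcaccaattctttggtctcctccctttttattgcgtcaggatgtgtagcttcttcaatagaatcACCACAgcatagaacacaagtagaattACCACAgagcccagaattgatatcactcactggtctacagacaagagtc
Klrc3, chr6:129643289-129643538, minus strand: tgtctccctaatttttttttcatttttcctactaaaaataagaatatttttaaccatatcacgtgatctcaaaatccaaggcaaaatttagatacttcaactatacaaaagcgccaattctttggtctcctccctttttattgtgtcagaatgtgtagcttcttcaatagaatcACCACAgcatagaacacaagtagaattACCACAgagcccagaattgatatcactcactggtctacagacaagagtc
Klrb1a, chr6:128622935-128623184, minus strand: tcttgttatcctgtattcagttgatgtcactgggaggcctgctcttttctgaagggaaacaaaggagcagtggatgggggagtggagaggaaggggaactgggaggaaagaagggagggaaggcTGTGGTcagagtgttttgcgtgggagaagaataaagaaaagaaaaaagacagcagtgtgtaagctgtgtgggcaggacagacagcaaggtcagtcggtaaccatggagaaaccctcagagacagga
Klra17, chr6:129876673-129876922, minus strand: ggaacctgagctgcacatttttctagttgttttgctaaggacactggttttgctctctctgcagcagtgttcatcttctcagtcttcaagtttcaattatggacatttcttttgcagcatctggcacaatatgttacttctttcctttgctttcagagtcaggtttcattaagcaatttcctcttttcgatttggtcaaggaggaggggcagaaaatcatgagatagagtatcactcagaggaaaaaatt
The Klrc2 and Klrc3 stretches were identical at 239 of 250 positions (95.6%), each with a pair of RUNX cores at 76 and 49 bases before the start. Klra17 held none. The members' windows were compared with all promoters in the table, taking the first listed window of each gene. Of the 23 members found, 8 (34.8%) held the RUNX core on either strand, against 14.2% of 27025 promoters of the same length. Windows that resemble each other, such as those of Klrc2 and Klrc3, were counted as separate members, and no enrichment was tested. The T-box core TCACAC was in 1 of 23 (4.35%) against 12.2%, and the ETS core GGAA in 22 of 23 (95.7%) against 93.4%. The T-box match was in Klrg2, and the other window of Klre1, which has 2, also held that core. Members with a RUNX core were Klrk1, Klrc1, Klrc2, Klrc3, Klrb1a, Klrb1c, Klre1 and Klra1. Of these, the windows of Klrb1a, Klrb1c and Klre1 lie within the genes as placed by the annotation used for gene positions. Those of Klrc2 and Klrc3 lie partly within. Such windows are before a RefSeq start but not before the whole gene. Klra3 and Klra7, both found mainly in NK gated cells, had none in this window. A match is a string of letters and was not tested as a bound site. Klrd1, Klrg1 and Klri2 had no entry.

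Most NK gated cells carried several of these receptors at once. Klrk1 UMIs were found in 84% of them, Klrd1 in 79.4%, Klrb1a in 71.3%, Klrc1 in 56.7%, Klre1 in 52.3%, Klra3 in 24.3%, Klrg1 in 19.7% and Klra7 in 17.4%. In B gated cells the same 8 genes were found in 0.0321% to 0.417% of cells. After thinning to 1000 UMIs the NK shares were 52.9% for Klrk1, 50.9% for Klrd1, 43.4% for Klrb1a and 38.4% for Klrc1. A missing UMI does not mark a cell without the receptor at this depth. Klrc1 and its partner Klrd1 were found together in 195 cells, equal to the 195 that the product of their shares gives. Klrc1 and Klrc2 were found together in 50 cells against a product of 32.9, but these genes share sequence.

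Klra genes were sparser. No Klra UMI was found in 261 NK gated cells (60.4%), 1 Klra gene in 135, 2 in 31 and 3 or more in 5. After thinning to 1000 UMIs, 74.6% had none and 3.24% had 2 or more. Klrc1 was found in 47.4% of the NK gated cells with a Klra UMI and in 62.8% of those without. In the PBS library the shares were 45.1% against 70.6%, with 34.3% against 45.7% in PBS well 1 and 51.8% against 80.3% in PBS well 2. In the IL-27 library both were 50%, and by well 37.5% against 45.2%, 55.2% against 57.6% and 63.2% against 47.8%, so the direction differed between wells. Klra3 and Klra7 were found together in 21 cells against a product of 18.2.

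IL-27 is a cytokine of the interleukin-12 family, and the comparison of the libraries asks how its delivery altered these immune cells. NK gated cells made up 0.891% of IL-27 cells (0.766 to 1.03%) and 2.17% of PBS cells (1.92 to 2.45%), a ratio of 0.41 (0.337 to 0.499). By well the shares were 1.02%, 1.06% and 0.611% with IL-27 and 1.3% and 3.17% with PBS. All 3 IL-27 values were below the PBS values, but PBS well 1 was close to them. Without PBS well 2 the ratio was 0.687.

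The family's summed level in NK gated cells was 4148, 4582 and 3729 CPM by IL-27 well against 4027 and 3870 by PBS well, which overlap, with a ratio of 1.07 (1.01 to 1.13). A gene was called when the pooled libraries differed at least 1.5-fold and every IL-27 well lay on one side of both PBS wells, among genes that reached 10 CPM in either library and 20 UMIs in all. Of the 15 members that passed the filter in NK gated cells, all of which reached 10 CPM in both libraries, 0 were called higher and 0 lower. Over all 7127 genes that passed, 4.08% were called higher and 5.96% lower by that rule. By the 1.5-fold difference alone, 4 of the 15 were higher (Klra7, Klrb1b, Klrg1 and Klri2) and 0 lower, against 8.81% and 11.9% of all genes. The median log2 ratio of the 15 was 0.05, beside -0.02 over all genes passed.

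**Figure D2:**
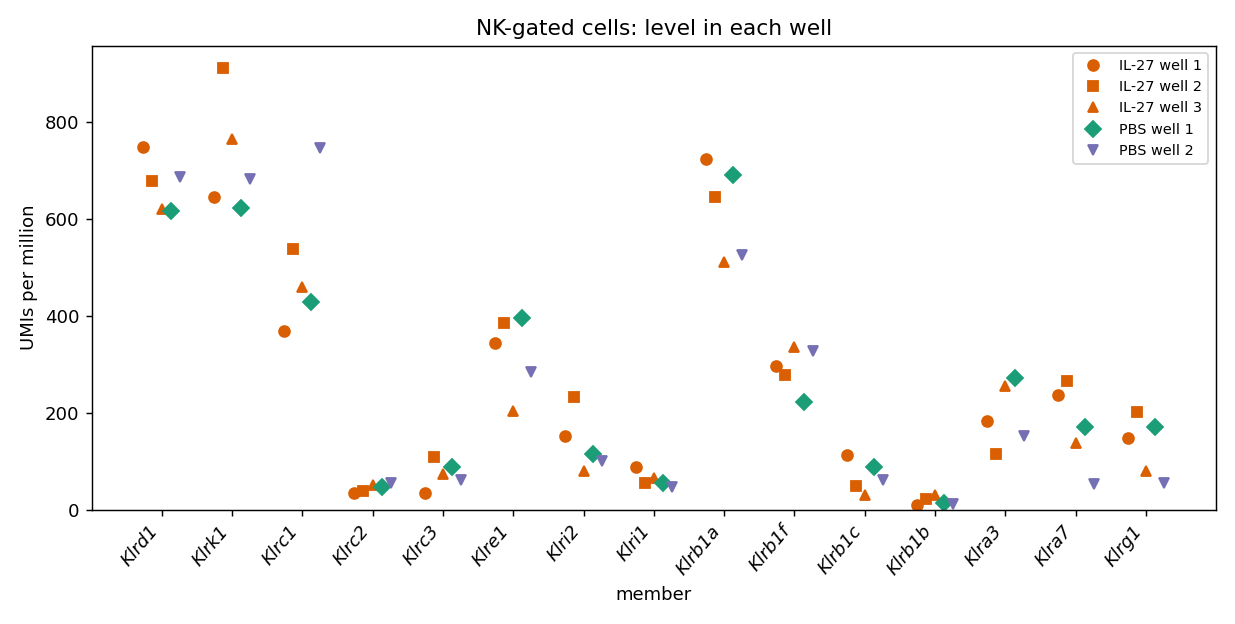
Level in CPM of the 15 members that passed the filter in NK gated cells, with 1 symbol per well (IL-27 wells in orange, PBS well 1 in green, PBS well 2 in purple). IL-27 and PBS symbols overlap for every member.

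Of Klrd1, Klrk1 and Klrc1, the most abundant genes of the NKG2 group in these cells, Klrd1 varied least over the wells and Klrc1 most. Klrd1 stood at 747, 678 and 619 CPM with IL-27 and at 616 and 686 with PBS. Klrk1 stood at 644, 911 and 765 against 621 and 681, and all IL-27 wells but the first lay above both PBS wells. Klrc1 was at 369, 537 and 459 CPM with IL-27, at 427 in PBS well 1 and at 745 in PBS well 2. Its pooled ratio of 0.682 (0.583 to 0.796) therefore rested on PBS well 2, and the log2 ratio was 0.08 without that well.

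Among the other receptors, Klrb1a was at 723, 645 and 510 CPM with IL-27 and at 689 and 525 with PBS. Klrb1f was at 295, 277 and 335 against 221 and 326, and Klre1 at 344, 385 and 204 against 395 and 283. For all 3 the groups overlapped and the pooled ratios were 1 to 1.13. The log2 ratio of Klre1 was 0.04, but -0.67 after thinning to 1000 UMIs per cell and -0.43 in cells called female from Xist. Klri2, which forms an activating pair with Klre1, was at 152, 233 and 80.1 CPM with IL-27 and at 115 and 100 with PBS. Its pooled ratio was 1.55 (1.14 to 2.12), although IL-27 well 3 was the lowest of the 5 wells.

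Of the Ly49 receptors only Klra7 and Klra3 passed the filter, and neither was called. Klra7, which encodes the inhibitory Ly49G, was at 236, 266 and 138 CPM with IL-27 and at 170 and 52.6 with PBS. Its pooled ratio was 2.64 (1.95 to 3.61), the largest of the 15 members, and IL-27 well 3 lay below PBS well 1. Without PBS well 2 its log2 ratio fell from 1.39 to 0.38. Klra3, the inhibitory Ly49C, was at 182, 114 and 255 against 271 and 151 CPM, a ratio of 0.968 (0.74 to 1.26). Its log2 ratio moved from -0.05 to -0.61 without PBS well 2 and to -1.09 in female-called cells. Klrg1, an inhibitory receptor for cadherins, was at 147, 201 and 80.1 against 170 and 54.3 CPM. Its pooled ratio of 1.75 (1.25 to 2.45) became a log2 ratio of -0.19 without PBS well 2. PBS well 2 was the lowest well for both Klra7 and Klrg1 and the highest for Klrc1.

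Genes that work with the receptors were described from 5 lists in the same cells. Of the signalling partners, 14 of 15 passed the filter and 2 were called higher with IL-27 and 0 lower. Over all 7127 genes that passed in NK gated cells, 4.08% were called higher and 5.96% lower. The adaptor Tyrobp, which also served in the gate, was at 3249, 2749 and 3263 CPM against 2592 and 3317. Hcst, the adaptor of NKG2D, was at 880, 846 and 692 against 883 and 921. The kinase Syk was at 108, 108 and 102 CPM with IL-27 and at 64.4 and 42.8 with PBS, and the SLAM adaptor Sh2d1a at 187, 174 and 189 against 124 and 92.1. Both were higher in each IL-27 well than in either PBS well.

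Of 11 NK transcription factors, 10 passed, and 1 was called higher and 0 lower. Eomes, a T-box factor of NK cell maturation, was at 447, 586 and 568 CPM with IL-27 and at 359 and 289 with PBS. Tbx21 overlapped, at 310, 298 and 233 against 198 and 237. Of 12 other NK receptors, 11 passed. Slamf6 was called higher, and Cd226 and Cd160 lower. Cd160, which binds herpesvirus entry mediator and class I molecules, was at 108, 81.3 and 65.6 against 147 and 296 CPM. Ncr1 was level, at 1706, 1920 and 1755 against 1829 and 1771. Of 12 effector genes, all 12 passed, 0 were called higher and Ccl4, Xcl1 and Ifng lower. Beside each of these 3 lists stand the shares over all genes, 4.08% higher and 5.96% lower. The chemokine Xcl1 was at 236, 206 and 284 against 395 and 911 CPM. The list medians of log2 ratios lay between -0.19 and 0.14, beside -0.02 over all genes passed. Markers of other cells also differed between wells of this gate, and their part in these values was not tested. In PBS well 2 the 6 mast cell markers summed to 145 CPM against 14.7 to 72.8, and Trac was at 127 against 29.1 to 78.1. The sum of the 8 NK markers was lowest there, at 12877 against 14632 to 16545, but single markers differed in direction. Gzma, at 4689 against 8090 to 9458, Eomes and Prf1 were lowest in that well. Ncr1 lay within the range of the other wells, and Xcl1 and Fcer1g were highest in PBS well 2.

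Ligands were also measured in these leukocytes. Of 15 listed, 13 were in the gene list and 6 passed in NK gated cells. Of these, 0 were called higher and Cdh1 was called lower, beside 4.08% and 5.96% of all genes. Cdh1 encodes E-cadherin, a ligand of Klrg1, and was at 4.92, 16.3 and 7.28 CPM with IL-27 and at 64.4 and 83.9 with PBS. H2-T23, which encodes the Qa-1 ligand of CD94 with NKG2A, was at 275 CPM in NK gated cells, 571 in pDC, 424 in B and 375 in Treg gated cells. Clec2d, the ligand of the inhibitory Klrb1b, was at 372 CPM in NK, 508 in pDC and 533 in Treg gated cells. Epithelial cells, which can also carry such ligands, were not a target of the CD45+ sort, and their 6 markers, 3 of them at 0, summed to 34.4 CPM in NK gated cells of IL-27 well 1, to 16.4 in PBS well 2 and to 0 to 4.6 in the other wells.

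CD8 gated cells split by Ccl5 into 1052 with a UMI and 1163 without. The Ccl5+ cells had 366, 166 and 122 from the IL-27 wells and 161 and 237 from the PBS wells. Only 18 Ccl5- cells came from PBS well 2, against 163 to 420 from each other well. The split cannot be taken to mean the same there. The Ccl5+ cells of PBS well 2 had 32967 CPM of Ccl5, against 2677 to 5775 in the other wells. Ccl5 RNA was also found more widely in that well, and the part of either in the split was not tested. B gated cells had a Ccl5 UMI in 19.4% of cells in PBS well 2 and in 2.57% to 3.59% elsewhere, and pDC gated cells had 554 CPM of Ccl5 against 0 to 16. The family stood at 779 CPM in Ccl5+ cells and at 135 (126 to 144) in Ccl5- cells. Klrd1 led in both, at 375 CPM (360 to 391) and 90.6 (83.4 to 98.3). Klrc1 was at 204 (193 to 216) against 10.9 (8.5 to 13.8), and Klre1 at 43.1 (38.1 to 48.6) against 0.156. These levels sum the wells, and PBS well 2 gave 934 of the 1256 Klrc1 UMIs and 242 of the 265 Klre1 UMIs of Ccl5+ cells. In the other wells the family was at 289 to 542 CPM in Ccl5+ cells and at 101 to 151 in Ccl5- cells. Klrc1 was at 37 to 93.7 against 5.31 to 14.1 in those wells, and Klre1 at 2.71 to 7.53 against 0 to 1.08. Ccl5+ cells were deeper than NK gated cells (median 5872 UMIs).

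PBS well 2 stood apart from the other 4 wells in the Ccl5+ cells. Klrd1 was at 167, 305 and 238 CPM with IL-27, at 187 in PBS well 1 and at 1109 in PBS well 2. Klrc1 was at 37, 93.7 and 80.3 with IL-27, at 83 in PBS well 1 and at 821 in PBS well 2. Klre1 was at 2.71, 5.26 and 7.53, then at 5.72 and 213 CPM. In each case PBS well 1 lay within the range of the IL-27 wells. With both CD8 gates combined, a choice made after the values were seen, the family stood at 205, 297 and 238 CPM with IL-27, at 247 in PBS well 1 and at 2347 in PBS well 2.

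Other members followed the same order of wells. Klrk1 was at 59.6, 93.7 and 74 CPM with IL-27 and at 65.8 and 223 with PBS. Klrc2, the activating NKG2C chain, was at 4.07, 11.6 and 7.53 against 11.4 and 44.8. Klri2 was at 9.47 CPM in IL-27 well 2, at 72 in PBS well 2 and at 0 in the rest. Klrb1, the NKR-P1G receptor, and Klra7 were each at 21.1 CPM in PBS well 2, where the other wells had 0 apart from 1.81 for Klra7 in IL-27 well 1. Klra5 (Ly49E) did not follow it, at 5.87, 4.21 and 7.53 against 13.4 and 5.27 CPM, and Klrg1 had 5 UMIs in all.

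**Figure D3:**
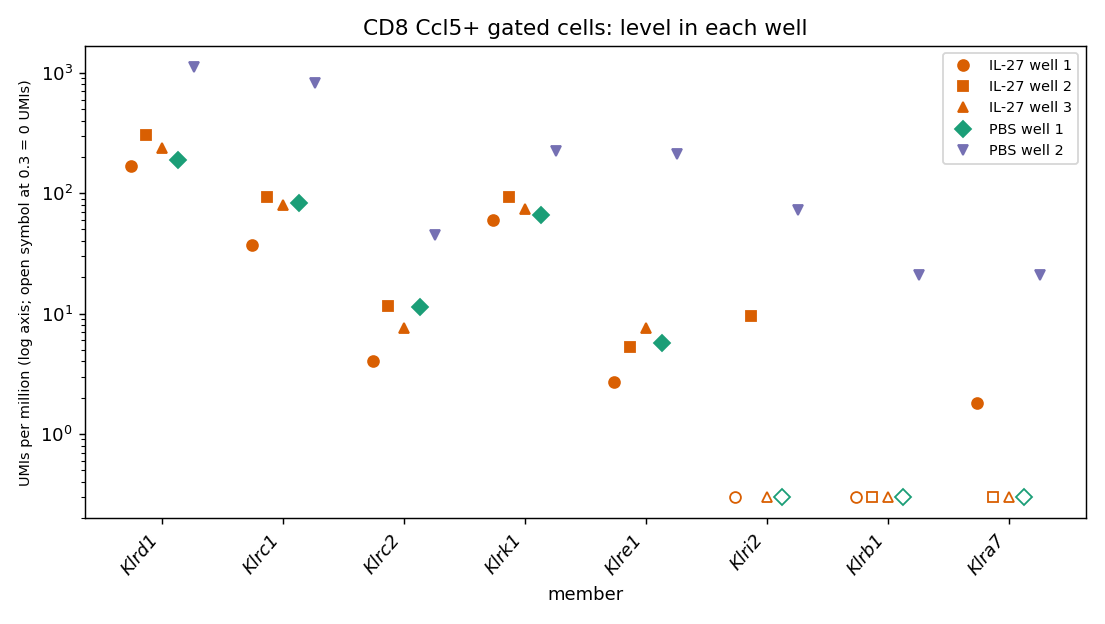
Level in CPM on a log axis of the 8 members that passed the filter in CD8 Ccl5+ gated cells, with 1 symbol per well and open symbols at the bottom for 0 UMIs. PBS well 2 is the highest symbol for all 8, and PBS well 1 lies among or near the IL-27 wells.

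Of the 8 members that passed the filter in these cells, Klra7, Klrb1, Klrc2, Klre1 and Klri2 reached 10 CPM in the PBS library alone and could only come out lower, so the count of members lower says nothing about the family. Klrc1, Klrd1 and Klrk1 reached it in both libraries. All 8 were at least 1.5-fold lower in the pooled IL-27 library, where 26.8% of 7859 genes were lower and 5.2% higher by that measure. By the rule that also separates the wells, 0 of 8 were called in either direction, against 2.51% of genes higher and 8.53% lower. The summed family had a log2 ratio of -2.00, which became 0.01 without PBS well 2 and -2.76 without PBS well 1. Without PBS well 2 the log2 ratios were 0.20 for Klrd1, 0.10 for Klrk1, -0.48 for Klrc1 and -0.35 for Klre1. The pooled difference rested on PBS well 2.

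In PBS well 2, Klrc1 UMIs were found in 83.1% of the Ccl5+ cells, against 17.5% to 33.5% in the other 4 wells, although its median depth of 4147 UMIs was the lowest (5798 to 6556 elsewhere). Klre1 was found in 48.1% against 1.64% to 3.73%. Klrc1 and Klre1 were found together in 104 of its 237 cells, against a product of their shares of 94.8. B gated cells of the same well had 6.49 CPM of Klrc1 and 1.23 of Klre1. Its 92 male-called cells had 859 CPM of Klrc1 (778 to 945), and its 6 female-called cells had 1 UMI, or 23.5 CPM (0.595 to 131). Cells with a Cd8b1 UMI, 224 of 237, had 853 CPM of Klrc1 (799 to 909). These splits were chosen after the values were seen.

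Other genes moved with PBS well 2 in these cells, and their part in the result was not tested. The 8 NK markers, all detected, summed to 3543 CPM there and to 875 to 1085 in the other wells, of which Ncr1 gave 19.3 CPM against 0 to 3.16. The genes Cd3d, Cd3e, Cd3g and Trac summed to 7224 against 2636 to 3001. The 6 mast cell markers summed to 559 against 0 to 4.77, the 9 B cell markers to 863 against 410 to 513, and the 6 epithelial markers, 1 of them at 0, to 85.2 against 0.954 to 6.78. The 4 myeloid genes summed to 307, against 153 in PBS well 1 and 2.51 to 8.42 with IL-27. Nkg7 was at 5931 CPM against 814 to 1218, and the chemokine Ccl4 at 4517 against 56.5 to 465.

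**Figure D4:**
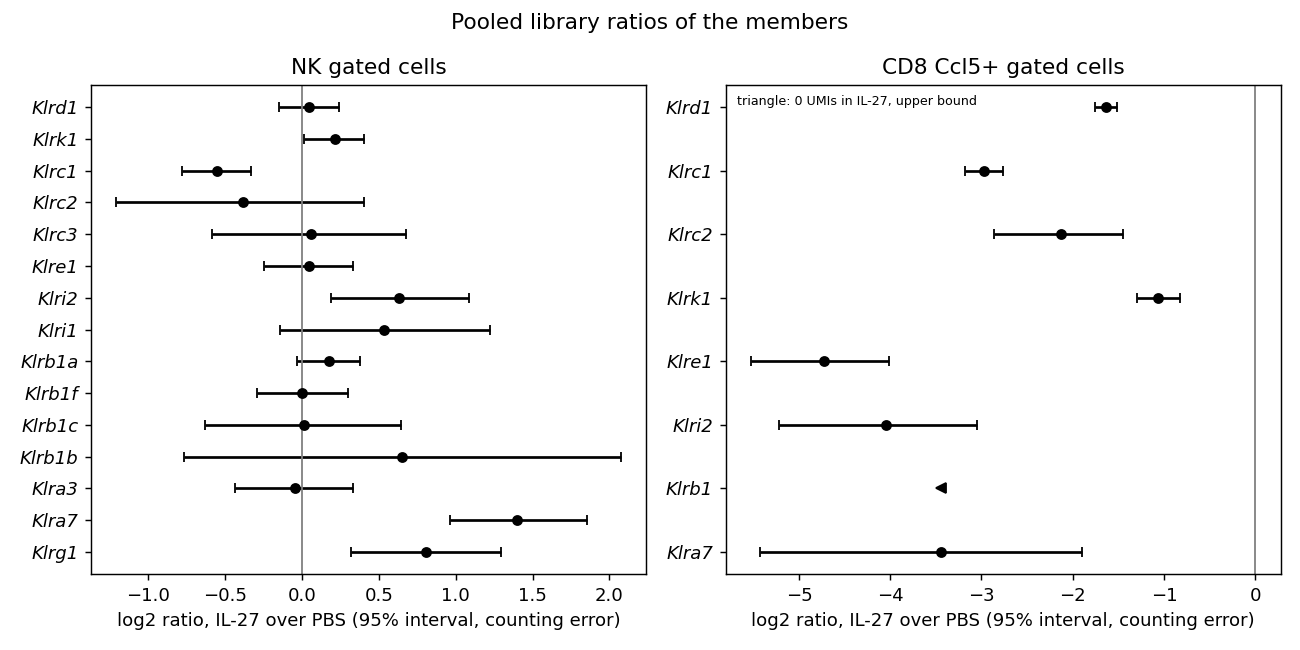
Log2 ratio of the pooled IL-27 library over the pooled PBS library, with 95% intervals for counting error, for the members that passed the filter in NK gated cells (left) and CD8 Ccl5+ gated cells (right). NK ratios lie on both sides of 0, and all CD8 ratios lie below -1, a difference carried by PBS well 2. The axes of the panels differ.

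The same well stood apart in other T cell gates. In T cells outside the named gates 8 members passed the filter, of which Klrd1 and Klrg1 reached 10 CPM in both libraries and the other 6 in the PBS library alone, so that these 6 could only come out lower. The counts are therefore given with no reading for the family: 7 were at least 1.5-fold lower with IL-27, where 3.54% of 7945 genes were lower and 0.579% higher. Klra5, Klra7, Klrb1a and Klrd1 met the rule that also separates the wells, 4 of 8 lower and 0 higher, against 1.72% and 0.403% of genes. Klra5 was at 0.876, 0.266 and 1.8 CPM with IL-27, at 2.35 in PBS well 1 and at 77.6 in PBS well 2. Klra7 was at 0.175, 0.532 and 0.771, then at 6.26 and 29.6 CPM. Klrd1 was at 14, 20.2 and 11.6 against 20.9 and 172, and Klrb1a at 5.08, 4.26 and 2.31 against 7.04 and 38.4. PBS well 1 lay just above the IL-27 wells for Klrd1 and Klrb1a, and B gated cells had at most 2.87 CPM of these 4 genes in any well apart from Klrd1 at 6.9 in PBS well 2. Klrg1 did not follow this order, at 13.5, 20.2 and 15.2 against 18.8 and 12.6 CPM. In PBS well 2 of this gate the 8 NK markers summed to 2009 CPM against 333 to 476, the 9 B cell markers to 2135 against 602 to 934 and the 6 mast cell markers to 103 against 1.75 to 13.1, and their part in the result was not tested.

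Innate-like T gated cells, 35 with a Zbtb16 UMI, held 66.4 CPM of Klra5 (36.3 to 111), the highest level of that gene, and its 14 UMIs all came from PBS well 2. Gamma-delta markers such as Trgv2 were also highest in this gate, so its cells cannot be taken as apart from gamma-delta T cells. Gamma-delta gated cells were at 559 CPM for the family, with 206 for Klrd1 (154 to 270), 151 for Klrc1 (107 to 207) and 103 for Klrk1 (67.3 to 151). By well the family stood at 153, 772 and 202 CPM with IL-27 and at 253 and 1891 with PBS, in 9 to 22 cells each. The 8 NK markers moved with it, at 4360 CPM in PBS well 2 against 789 to 1452, as did the 6 mast cell markers, 3 of them at 0, at 185 against 0 to 23, and their part was not tested. The log2 ratio of the summed family in that gate was 0.20 without PBS well 2.

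Klrg1 had a distribution of its own. It was at 380 CPM (294 to 483) in 37 ILC2 gated cells, at 150 (137 to 164) in 795 Treg gated cells and at 110 (92.6 to 129) in NK gated cells. In CD8 Ccl5+ gated cells it was at 0.813 CPM (0.264 to 1.9), close to the 0.616 of B gated cells. The receptor is known as a mark of effector regulatory T cells, of tissue ILC2 and of short-lived effector CD8 cells. In Treg gated cells it was found in 18% (15.4 to 20.8%), and Klrd1, Klrk1 and Klrc1 were found in 0.126% to 0.377%, beside 0.219% to 0.417% of B gated cells. Klrg1 thus made up 475 of the 507 family UMIs there.

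The groups overlapped for Klrg1 in Treg gated cells. It was at 116, 134 and 189 CPM with IL-27, at 236 in PBS well 1 and at 48.6 in PBS well 2, a ratio of 1.01 (0.829 to 1.24). The PBS wells were the highest and the lowest of the 5, and the log2 ratio was -0.65 without PBS well 2. In ILC2 gated cells it was at 341, 84.2 and 242 against 193 and 585 CPM, from 3 to 14 cells a well. PBS well 2 was the lowest well for Klrg1 in Treg and NK gated cells and the highest in ILC2 gated cells. The 4 myeloid genes in Treg gated cells were at 1514 CPM in PBS well 2, 618 in IL-27 well 3 and 5.66 to 19.3 in the rest.

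**Figure D5:**
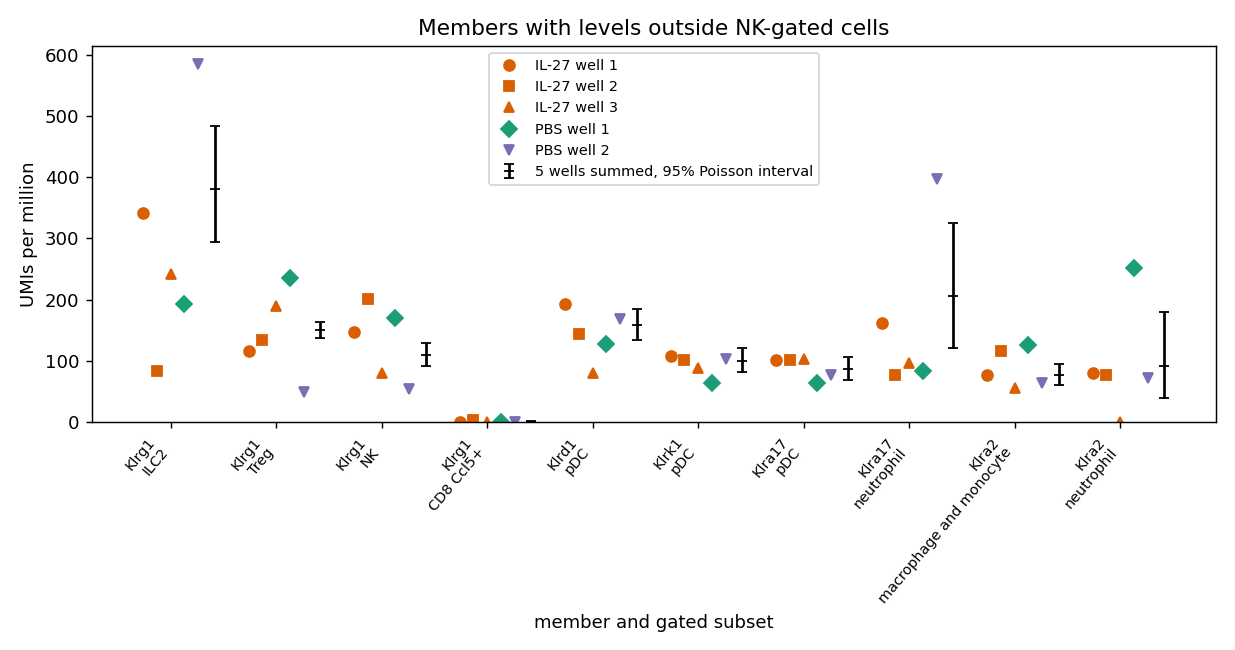
Level in CPM of Klrg1, Klrd1, Klrk1, Klra17 and Klra2 in selected subsets, with 1 symbol per well and, at the right of each, the 5 wells summed with the 95% Poisson interval. Klrg1 is near 0 in CD8 Ccl5+ gated cells and highest in ILC2 gated cells. Klra17 lies between 63.9 (3 UMIs) and 104 in every well of pDC gated cells.

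Myeloid and dendritic gates carried different members. Klra17 encodes Ly49Q, a receptor known on plasmacytoid dendritic cells and neutrophils, and had 0 UMIs in NK gated cells. In 140 pDC gated cells it was at 102, 101 and 104 CPM with IL-27 and at 63.9 and 77.7 with PBS. All 3 IL-27 values exceeded the PBS values, but the ratio was 1.34 (0.851 to 2.08), below 1.5-fold. The order of wells is uncertain, since PBS well 1 gave 3 UMIs from 9 cells and IL-27 well 2 gave 7 UMIs from 12 cells. In 59 neutrophil gated cells it was at 206 CPM (122 to 325) from 18 UMIs. Klra2 (Ly49B), known on myeloid cells, was at 76.9 CPM (61.1 to 95.6) in macrophage and monocyte gated cells, with 77.3, 117 and 55.2 against 126 and 64.1 by well. It was at 91.3 (39.4 to 180) in neutrophil gated cells, where its interval contains the macrophage level.

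pDC gated cells also carried Klrd1 at 159 CPM (135 to 185) and Klrk1 at 100 (81.5 to 122). By well Klrd1 was at 193, 144 and 80 CPM with IL-27 and at 128 and 169 with PBS, and Klrk1 at 108, 101 and 88 against 63.9 and 103. Klrc1, the chain that pairs with Klrd1, was at 3.96 CPM (1.08 to 10.1). The NK genes Ncr1 and Nkg7 were at 13.9 and 19.8 CPM in pDC gated cells, against 1789 and 2664 in NK gated cells. Conventional dendritic gated cells, 54 in all, had 76.7 CPM of Klrk1 (52.4 to 108), with 51.2, 66.8 and 54.9 against 42.9 and 118 by well. The family stood at 162 CPM in macrophage and monocyte gated cells and at 134 in these dendritic cells.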

How the data were processed

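RNA of CD45+ stomach cells was measured by single-cell sequencing in 1 IL-27 and 1 PBS library. Reads were aligned to mm10 and counted with Cell Ranger 3.0.0 per the submitters' processing notes. The authors deposited unnormalized UMI counts for each gene in each barcode, in matrices whose headers name software version 3.1.0. The members, gates and gene lists were chosen with earlier results of these data known. Cells needed at least 200 genes and at most 10% mitochondrial UMIs. Scrublet (scanpy 1.11.5) removed doublets per well, except in PBS well 2, where it marked under 0.5%. Gates used marker UMIs, first match wins. UMIs were summed per subset, library and well, as CPM over all genes, with exact Poisson, binomial and conditional ratio 95% intervals (scipy 1.17.1) that cover counting error only. Log2 ratios used a pseudocount of 1 CPM. With 1 library per group there was no test and no p-value. Called genes differed at least 1.5-fold with the wells apart, at 10 CPM and 20 UMIs or more. Any member could be named, with values by well mainly for those with at least 100 UMIs in a subset. From each list at most 3 genes at either end of the NK log2 ratios, the gate markers and a few fixed partners could be named. Genes given below 100 UMIs, and the gene examples in CD8 Ccl5+ cells, were chosen after their values were seen. Gene IDs were matched to GENCODE M21 (26 of 26) and promoters to RefSeq (23 of 26). The calling rule and the intervals were tested on simulated data. Alternatives covered the cell filter, doublets, gates, sex, depth, scaling, pseudocount, call thresholds and each well left out. Protein sequences were not used here.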

Additional observations from a re-analysis of the deposited data

How the results depend on the processing

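No paired analysis was possible because each group has 1 library and the labels give no replicate numbers. Over the main results, 53 alternative values moved beyond their interval or count limit and 120 did not, and over single members 69 moved and 259 did not. No sign reversal met the rule for a call, and the cause of these moves was not tested.

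The family's log2 ratio in NK gated cells (0.10) was 0.182 with at least 500 genes and at most 5% mitochondrial UMIs and -0.0544 after thinning to 1000 UMIs. In CD8 Ccl5+ gated cells it was -2.17 with stricter gate markers, -1.73 with mitochondrial, ribosomal, haemoglobin and antigen receptor genes out of the total, and -0.0301 in female-called cells. Female-called cells, of which PBS well 2 has few, gave 0.444 in CD8 Ccl5-, 0.0491 in gamma-delta, -0.512 in Treg, -0.253 in conventional CD4 and 0.458 in pDC gated cells. Thinning gave -0.951 in gamma-delta, -0.72 in Treg and 0.472 in pDC gated cells, and stricter markers 0.267 in Treg gated cells.

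With each well left out in turn, the family's log2 ratio ran from -2.76 (without PBS well 1) to 0.00669 (without PBS well 2) in CD8 Ccl5+, from -1.61 to 0.414 in CD8 Ccl5-, from -2.7 to 0.195 in gamma-delta, from -0.642 to 1.05 in Treg, from -3.28 to 0.0229 in conventional CD4 and from -0.321 to 0.443 in pDC gated cells. In all but the Treg and pDC gates the lowest came without PBS well 1, and in all but the Treg gate the highest came without PBS well 2.

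In NK gated cells, where 0 members were called, alternatives changed the counts, given here of the members that passed and beside the share of all genes. Members called higher were 1 of 15 with the stricter cell filter (5.07% of all genes) and 3 of 14 with no B-lineage UMI allowed (4.46%). They were 2 of 14 in female-called cells (9.78%), 1 of 14 after thinning (4.85%) and 1 of 18 without the CPM filter (4.88%). With a well left out they were 0 to 3 of 14 (5.89% to 12%). Members called lower were 1 of 14 after thinning (6.88% of all genes) and 0 to 1 of 14 with a well left out (8.5% to 11.2%). In CD8 Ccl5+ gated cells, members called lower were 1 of 9 with no B-lineage UMI allowed (9.19% of all genes) and 2 of 9 with stricter markers (8.17%). They were 3 of 6 after thinning (13.1%), 1 of 9 with the other total (4.79%) and 0 to 8 with a well left out (4.37% to 47.4%). The 8, of 8 passed, came without PBS well 1, where 47.4% of all genes were called lower. In the main setting 5 members reached 10 CPM in the PBS library alone and could only come out lower. The NK share ratio was 0.685 in female-called cells and 0.281 to 0.687 with a well left out. A member's UMI was found in 100% of NK gated cells with the stricter cell filter and in female-called cells.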

Other observations

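Conventional CD4 gated cells, 2645 in all, carried little of the family outside PBS well 2. Klrd1, the shared chain of the CD94 receptors, was at 1.88, 4.47 and 7.81 CPM with IL-27, at 2.4 in PBS well 1 and at 89.1 in PBS well 2. Klrc1 (NKG2A) was at 0.626, 1.86 and 1.42, then at 1.44 and 71.3 CPM. Both genes reached 10 CPM in the PBS library alone. In PBS well 2 of this gate, from which no doublets could be removed, the 9 B cell markers summed to 2480 CPM against 542 to 663, the 6 mast cell markers to 310 against 1.25 to 12 and the 8 NK markers to 954 against 319 to 389, and their part was not tested. B gated cells had 1.46, 0.369 and 0.818 CPM of Klrd1 by IL-27 well, against 1.17 and 6.9 by PBS well. Their Klrc1 levels were 0.729, 0 and 0.0682 against 0.449 and 6.49. Klrd1 in the CD4 gate lay above the B level of the same well throughout, most narrowly in IL-27 well 1. Klrc1 lay below it in IL-27 well 1 and above it elsewhere, from 2 to 5 UMIs a well outside PBS well 2. Klrg1, known on regulatory and effector T cells, was at 8.76, 8.2 and 8.87 against 6.73 and 16.5 CPM.

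The 2364 ungated cells held 13.4% of the family's UMIs, at 255 CPM (245 to 266), so the gates did not gather every cell that carries these receptors. Klrd1 was at 28.5, 49.2 and 33.6 CPM there with IL-27 and at 36.6 and 179 with PBS, and Klrc1 at 11.4, 22.3 and 10.1 against 9.6 and 129. PBS well 2 was the highest well for both, and there the 8 NK markers summed to 1582 CPM against 462 to 922 and the 6 mast cell markers to 2909 against 4.28 to 125.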
